A study of Mus musculus with 18 samples.

Results

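The difference of drug effects described here asks whether mouse oligodendrocyte progenitor cells (OPCs) with a CRISPR edit of Vhl responded to the MEK inhibitor AZD8330 as control cells did. For each gene it is the log2 effect of the drug in Vhl cells minus the log2 effect in control cells, so it rests on 12 of the 18 libraries of the study, 3 in each of 4 groups. The groups were Vhl cells with 300 nM AZD8330, Vhl cells with DMSO, control cells with 300 nM AZD8330 and control cells with DMSO. Exposure lasted 14 hours in each. Control cells carried a CRISPR control instead of the Vhl edit, and the position of the edit in Vhl is not given. All cells were OPCs derived from epiblast stem cells and grown with N2max, B27, Fgf2 and Pdgfa. The 6 untreated libraries of the study carry no drug and were not used. Whether the 3 libraries of a group, lettered A to C, are separate cultures is not stated in the labels, and p-values therefore cover only the spread between these samples, which may be technical. In bulk RNA, fewer cells of a type and less RNA per cell cannot be told apart.

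OPCs are the dividing precursors of the myelin-forming oligodendrocytes. VHL recognises hydroxylated HIF alpha subunits and sends them to the proteasome, and cells without it are known to run the hypoxia program in normal oxygen. MEK is the kinase that activates ERK, which growth factors such as Fgf2 and Pdgfa use to drive division and to induce their own feedback inhibitors. Cholesterol synthesis is controlled by SREBP2, a membrane-bound transcription factor that is released when sterols are low, and it is known in this lineage for supplying myelin.

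The edited gene was checked first. Vhl (chromosome 6, 113623959 to 113631633, plus strand, GRCm38, GENCODE M21) had 103.4, 104.4 and 91.79 CPM, TMM-scaled estimated counts per unit of library size, in Vhl cells with AZD8330 and 89.81, 92.94 and 93.85 CPM in Vhl cells with DMSO. Control cells had 139.4, 136.3 and 137.9 CPM with AZD8330 and 108.5, 106.9 and 102.0 CPM with DMSO. Every Vhl library lay below every control library of the same treatment. A coding edit can disable VHL without lowering its mRNA. The difference of drug effects on Vhl itself was log2 −0.27 ± 0.07 (SE, edgeR's quasi-likelihood test, adjusted p = 0.0242). Leaving out Vhl DMSO B, Vhl DMSO C, control AZD8330 A or control DMSO C ended that call, with values between −0.26 and −0.24. The OPC identity list had all 22 of its genes above the filter, with a summed level between 10170 and 12980 CPM over the 12 libraries. Of 9 microglia markers 8 had a count in some library, none reached 1 CPM in any, and their sum was at most 1.93 CPM. Libraries held between 12391077 and 16349676 estimated counts.

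AZD8330 moved expression less in Vhl cells than in control cells. Of 13460 genes tested, 1718 (12.8%) had a difference of drug effects that passed edgeR's quasi-likelihood test at an adjusted p under 0.05. The difference was positive in 1051 genes (7.81%) and negative in 667 (4.96%). At 2-fold or more, 95 were positive and 77 negative. Over all tested genes its median was log2 0.03 with a middle range of 0.43. The drug raised 3479 genes (25.8%) and lowered 3445 (25.6%) in Vhl cells. In control cells it raised 3912 (29.1%) and lowered 4268 (31.7%). Across all tested genes the log2 drug effects had an SD of 0.92 in Vhl cells and 1.05 in control cells. Their correlation across genes was r = 0.83 (n = 13460 genes, which are not independent replicates). In the 7748 genes whose 4 group means all reached 10 CPM, the SDs were 0.59 in Vhl cells and 0.71 in control cells, with r = 0.93.

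The shapes of the 1718 differences were mostly reductions. In 678 genes (39.5%) the drug lowered expression in both kinds of cell, and the fall was smaller in Vhl cells. In 443 genes (25.8%) it raised expression in both, and the rise was smaller in Vhl cells. A fall passed in control cells alone in 193 genes and a rise in control cells alone in 112 genes. Larger responses in Vhl cells were rarer, with 64 larger rises, 58 larger falls, 61 rises in Vhl cells alone and 30 falls in Vhl cells alone. All tested genes, whether or not the difference passed, were skewed the same way. Where both drug effects passed, falls were smaller in Vhl cells in 2478 and larger in 661. Rises were smaller in 2103 and larger in 838. In control cells alone 1074 fell and 947 rose, and in Vhl cells alone 282 fell and 483 rose. Both drug effects passed with opposite signs in 79 genes, of which 55 rose in Vhl cells and fell in control cells. In all, the drug effect was nearer to 0 in Vhl cells in 1471 of the 1718 genes (85.6%). The same held for 67.3% of all tested genes and for 71.6% of those whose 4 group means all reached 10 CPM. The share of 85.6% was chosen after seeing the data and lay between 82.2% and 86.6% over the edgeR alternatives.

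**Figure D1:**
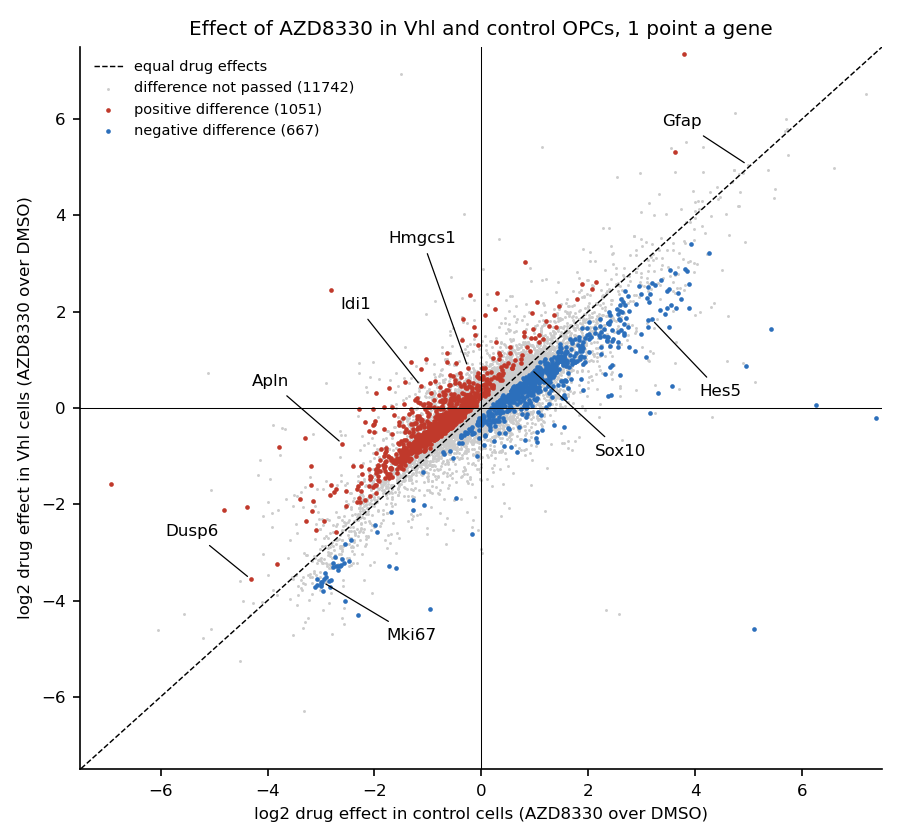
The log2 effect of AZD8330 over DMSO in Vhl cells (vertical axis) is plotted against that in control cells (horizontal axis), 1 point a gene, with the dashed line marking equal effects. Red points are the 1051 positive and blue points the 667 negative differences, grey points did not pass, and 14 genes lie outside the axes. Positive differences lie above the line, many in genes that fell in control cells, and negative ones below it, many in genes that rose in control cells.

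The balance of directions depended on scaling and on single libraries. Among the differences that passed, the median size was log2 0.42. Positive differences were 61.2% of the calls with TMM scaling, 52.6% with DESeq2's size factors and 44.0% with total counts. They were 37.6% when genes under a mean of 5 CPM were left out, 34.5% without the library Vhl AZD8330 A and 37.3% without control AZD8330 B. A log difference can also turn sign on the linear scale, where a gene starts at unequal levels. Of the 1718 genes, 1625 (94.6%) had the same sign as a difference of differences of mean CPM. The other 93 comprised 17 genes positive and 76 negative in log2.

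The sterol genes showed the difference most fully. Of 24 tested genes of the cholesterol list, 21 had a positive difference and none a negative one, 87.5% against 12.8% of all genes, with a median of log2 1.08 against 0.03. In Vhl cells the drug raised 14 of the 24 and lowered 2. In control cells it raised none and lowered 20. Of the 21, 11 rose in Vhl cells and fell in control cells, 6 fell in control cells alone, 2 rose in Vhl cells alone and 2 fell less in Vhl cells. The fitted Vhl-to-control ratio of all 21 was above 1 in AZD8330 and below 1 in DMSO. The list had between 19 and 21 positive members in each of the 21 settings of scaling, test, filter and libraries, with a median between 1.0 and 1.13. It had no negative member in any of them. Each list count below stands against 7.81% positive and 4.96% negative differences over all tested genes.

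Enzymes near the start of the pathway were among them. Idi1 makes the isoprene unit dimethylallyl diphosphate (chromosome 13, 8885501 to 8892451, plus strand). It had 348.5, 367.4 and 334.6 CPM in Vhl cells with AZD8330 and 259.3, 257.9 and 246.1 CPM in Vhl cells with DMSO. Control cells had 140.3, 159.2 and 166.5 CPM with AZD8330 and 352.8, 343.0 and 324.6 CPM with DMSO. It thus rose in Vhl cells and fell in control cells, and the pairs of groups did not overlap. The difference was 1.59 ± 0.08 (edgeR's quasi-likelihood test, adjusted p = 3.70e-07). Hmgcs1 encodes the synthase that makes HMG-CoA. It had 2583, 2813 and 2594 CPM in Vhl cells with AZD8330 against 1537, 1513 and 1422 CPM in Vhl cells with DMSO. Its control libraries had 1353, 1473 and 1569 CPM with AZD8330 against 1726, 1829 and 1661 CPM with DMSO. Its rise in Vhl cells was log2 0.84 ± 0.06 and its fall in control cells −0.25 ± 0.06, so the difference of 1.08 ± 0.08 came mostly from the rise in Vhl cells (edgeR's quasi-likelihood test, adjusted p = 4.07e-06). For Idi1, 27.1% of the 31-base words of its transcripts also occur in another gene, where reads could be split.

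The promoters of these 2 genes are printed from RefSeq (GRCm38.p6), 250 bases before to 50 after the start, because Idi1 had the largest positive difference of the sterol genes with a promoter among those named by size, and Hmgcs1, chosen after its values were seen, is the 1 sterol gene whose window holds the letters searched for the sterol regulatory element. Capitals mark matches to the motifs searched: the HIF core in Idi1 on the reverse strand (chr13:8885356-8885655, plus strand), and in Hmgcs1 (chr13:119690101-119690400, plus strand) the sterol regulatory element followed by an ETS core on the reverse strand. A match describes the letters and is no measured site.
Idi1: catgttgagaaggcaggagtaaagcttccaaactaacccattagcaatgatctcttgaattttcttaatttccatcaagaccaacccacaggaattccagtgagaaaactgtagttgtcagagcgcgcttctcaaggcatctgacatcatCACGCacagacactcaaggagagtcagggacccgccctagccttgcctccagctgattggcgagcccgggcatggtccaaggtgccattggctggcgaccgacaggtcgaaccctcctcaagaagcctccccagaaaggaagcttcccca
Hmgcs1: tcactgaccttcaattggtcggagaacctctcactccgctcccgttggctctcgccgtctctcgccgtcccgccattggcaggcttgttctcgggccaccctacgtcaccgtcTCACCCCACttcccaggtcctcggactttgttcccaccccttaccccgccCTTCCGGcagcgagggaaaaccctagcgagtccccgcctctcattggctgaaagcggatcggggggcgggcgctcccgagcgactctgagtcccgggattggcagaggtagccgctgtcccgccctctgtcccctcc

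Other named steps moved in opposite directions in the 2 kinds of cell. Lss closes squalene epoxide into lanosterol. It averaged 308.8 ± 24.0 CPM in Vhl cells with AZD8330 and 214.6 ± 9.60 CPM in Vhl cells with DMSO, against 131.1 ± 7.26 CPM in control cells with AZD8330 and 253.6 ± 13.3 CPM in control cells with DMSO (SD, n = 3). Mvd, a decarboxylase of the mevalonate pathway, averaged 163.6 ± 6.55 and 111.5 ± 7.11 CPM in Vhl cells with AZD8330 and with DMSO, against 74.57 ± 7.15 and 135.8 ± 8.43 CPM in control cells with AZD8330 and with DMSO. The differences were 1.48 ± 0.09 for Lss and 1.42 ± 0.10 for Mvd. Fdft1, the squalene synthase gene, had a difference of 0.93 ± 0.07 (31.9% of its 31-base words shared), and Aacs, which feeds ketone bodies into lipid synthesis and is not on the sterol list, 1.03 ± 0.08. All 4 passed edgeR's quasi-likelihood test, with adjusted p between 1.33e-06 and 4.37e-06. Of the control of the pathway, chosen after its values were seen, Insig1, which retains SREBP in the endoplasmic reticulum, had a difference of 1.95 ± 0.31 at under 8 CPM. Srebf2, the gene of SREBP2, had 0.44 ± 0.05. The 3 tested sterol genes that did not pass, Pmvk, Hsd17b7 and Ebp, were listed at group means under 6 CPM.

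**Figure D2:**
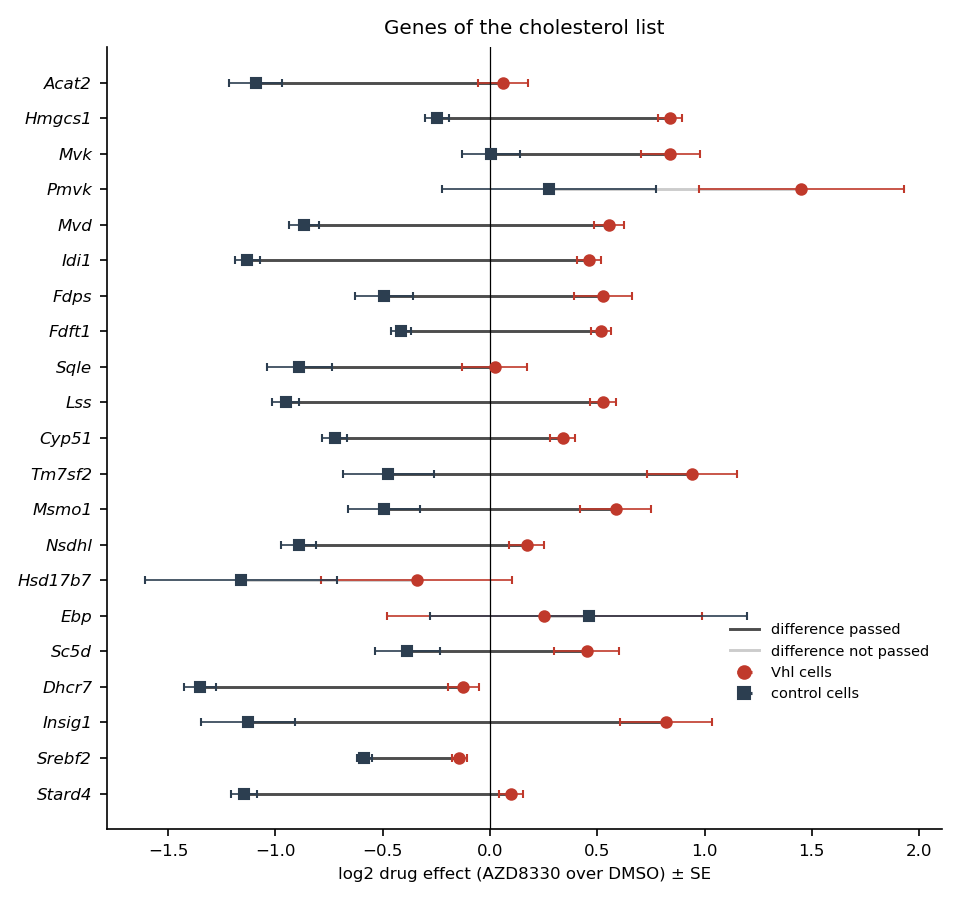
The horizontal axis gives the log2 effect of AZD8330 over DMSO with its SE for 21 of the 24 tested genes of the cholesterol list, in Vhl cells (red circles) and in control cells (dark squares). Dark connecting lines mark the 18 differences among them that passed; the red circle lies to the right of the square in each of them.

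Fatty acid synthesis shared part of this. Of 14 tested genes, 6 had a positive difference, against 7.81% of all genes, and none a negative one. The median was log2 0.60, and 0.32 without Vhl AZD8330 C. Fasn, the fatty acid synthase gene, had 1021, 1023 and 1051 CPM in Vhl cells with AZD8330 and 1037, 1010 and 981.5 CPM in Vhl cells with DMSO. Among control libraries it had 719.9, 678.1 and 682.0 CPM with AZD8330 and 1338, 1451 and 1334 CPM with DMSO. The Vhl groups overlapped and the control groups did not, and the difference was 1.02 ± 0.05 (edgeR's quasi-likelihood test, adjusted p = 4.27e-07). Elovl6, which lengthens fatty acids, fell less in Vhl cells (difference 0.86 ± 0.05). Scd1, a desaturase gene, rose more in Vhl cells, by log2 1.03 ± 0.04 against 0.21 ± 0.04 in control cells.

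Most genes of the MEK/ERK output list fell with the drug: of 24 tested, 14 fell and 5 rose in Vhl cells, and 17 fell and 5 rose in control cells. The difference was positive in 7 and negative in 2, against 7.81% and 4.96% of all genes. Its median was log2 0.29, and 0.069 among genes of at least 5 CPM. Of the 7 positive genes, 5 fell less in Vhl cells, 1 fell in control cells alone and 1 rose more in Vhl cells. On the linear scale 11 of the 24 tested genes had a positive value. The median drug effect was −0.88 in Vhl cells and −1.32 in control cells. Dusp6, the phosphatase that switches off ERK, had 33.24, 30.41 and 34.65 CPM in Vhl cells with AZD8330 and 365.2, 391.4 and 395.3 CPM in Vhl cells with DMSO. The control cells had 20.91, 20.48 and 21.23 CPM with AZD8330 and 423.5, 404.8 and 417.1 CPM with DMSO. The drug effect was log2 −3.55 ± 0.05 in Vhl cells and −4.31 ± 0.05 in control cells. The libraries with the drug did not overlap between Vhl and control cells, and the difference was 0.76 ± 0.07 (edgeR's quasi-likelihood test, adjusted p = 2.73e-05).

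Myc, a growth-promoting transcription factor gene, had 156.9, 156.5 and 159.6 CPM in Vhl cells with AZD8330 and 260.5, 254.8 and 244.4 CPM in Vhl cells with DMSO. Control libraries had 86.94, 86.75 and 81.19 CPM with AZD8330 and 238.1, 240.3 and 239.8 CPM with DMSO. The fall in Vhl cells left every library above those of drug-treated control cells. The difference was 0.81 ± 0.05 (edgeR's quasi-likelihood test, adjusted p = 1.47e-06). Spry1, a feedback inhibitor of receptor signalling, had a difference of 0.57 ± 0.05, and Etv4, an ETS factor gene induced by ERK, 0.59 ± 0.10. Ccnd1, the cyclin D1 gene, had drug effects of log2 −1.90 ± 0.03 in Vhl cells and −2.18 ± 0.03 in control cells, a difference of 0.28 ± 0.04. On the linear scale the Ccnd1 value turned to −108 ± 13.6 CPM, since its level in DMSO was higher in Vhl cells. Spry4, another feedback inhibitor, had a difference of 0.30 ± 0.11 that did not pass (edgeR's quasi-likelihood test, adjusted p = 0.121). It did pass with no filter on low counts and without control AZD8330 B. Il17rd, an antagonist of FGF signalling, and Dusp7, an ERK phosphatase gene, were the negative members (−0.49 ± 0.08 and −0.25 ± 0.06); Il17rd rose in both kinds of cell and Dusp7 fell in both.

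Apln had the largest positive difference among named genes whose 4 group means all reached 10 CPM. It encodes apelin, a secreted peptide ligand (chromosome X, 48025146 to 48034853, minus strand). It had 98.06, 102.3 and 94.92 CPM in Vhl cells with AZD8330 and 159.0, 164.8 and 169.7 CPM in Vhl cells with DMSO. Control cells had 28.20, 28.64 and 22.59 CPM with AZD8330 and 161.2, 158.4 and 163.1 CPM with DMSO. The DMSO groups overlapped between Vhl and control cells, and the AZD8330 groups stood far apart. The difference was 1.86 ± 0.09 (edgeR's quasi-likelihood test, adjusted p = 3.29e-07). Its promoter is shown for its rank by the rule. The window on the minus strand (chrX:48034804-48035103, RefSeq, GRCm38.p6) held none of the motifs searched and so has no capitals.
Apln: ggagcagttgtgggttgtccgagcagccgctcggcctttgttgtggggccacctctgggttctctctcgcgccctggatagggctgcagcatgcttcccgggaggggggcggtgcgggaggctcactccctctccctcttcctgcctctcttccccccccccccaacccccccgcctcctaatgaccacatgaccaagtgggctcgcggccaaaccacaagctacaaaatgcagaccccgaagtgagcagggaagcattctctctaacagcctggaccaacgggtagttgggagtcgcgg

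**Figure D3:**
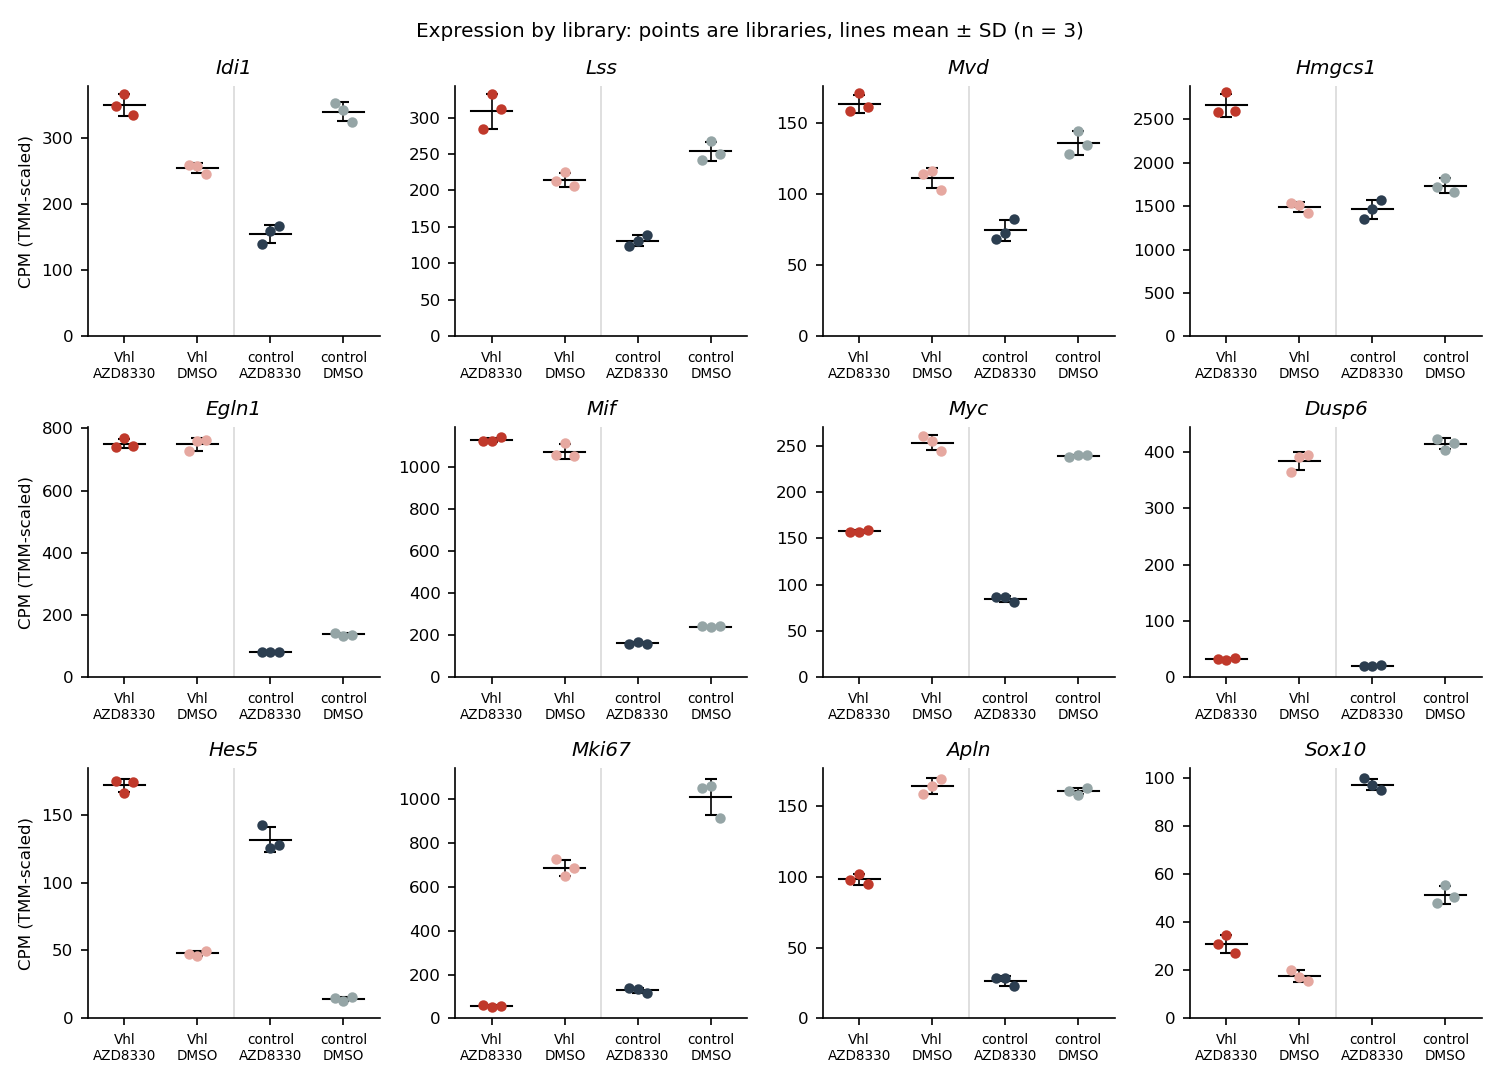
Each panel shows the CPM of 1 gene on an axis starting at 0, with 3 libraries a group in the order Vhl AZD8330, Vhl DMSO, control AZD8330 and control DMSO, and the mean ± SD as lines. Idi1, Lss and Mvd are lowest in drug-treated control cells; Dusp6 and Mki67 fall with the drug in both kinds of cell, and Sox10, whose difference did not pass, rises in both.

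The hypoxia list was higher in Vhl cells under both treatments, and more of its genes fell with the drug in control cells. The summed level of its tested genes was 8015 to 8277 CPM in Vhl cells with AZD8330 and 6311 to 6515 CPM in Vhl cells with DMSO, against 1631 to 1690 CPM in control cells with AZD8330 and 1443 to 1490 CPM in control cells with DMSO. The drug raised 21 and lowered 1 of its genes in Vhl cells, and raised 10 and lowered 10 in control cells. Of 32 tested hypoxia genes outside glycolysis, 13 had a positive and 2 a negative difference, against 7.81% and 4.96% of all genes. The median was log2 0.21, and it was 0.12 without control AZD8330 B, 0.35 without control AZD8330 C and 0.33 without Vhl DMSO C. The median drug effect was 0.51 in Vhl cells and 0.19 in control cells. Egln1, the main oxygen-sensing hydroxylase of HIF, had 741.2, 768.5 and 744.3 CPM in Vhl cells with AZD8330 and 726.1, 759.9 and 763.1 CPM in Vhl cells with DMSO. Its control libraries had 82.00, 82.91 and 80.18 CPM with AZD8330 and 143.5, 134.4 and 136.4 CPM with DMSO. The Vhl groups overlapped and the control groups did not. The difference was 0.76 ± 0.05 (edgeR's quasi-likelihood test, adjusted p = 1.68e-06). Mif, a cytokine gene, had 1131 ± 9.46 and 1074 ± 33.7 CPM in Vhl cells with AZD8330 and with DMSO, against 162.0 ± 4.39 and 241.2 ± 3.10 CPM in control cells (SD, n = 3). Its libraries did not overlap between treatments in either kind of cell. The difference was 0.65 ± 0.04, and 60.5% of its 31-base words are shared with other genes.

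Higd1a, a small mitochondrial protein gene, and Egln3, a hydroxylase gene that HIF induces, rose in Vhl cells and fell in control cells. Their differences were 0.77 ± 0.07 and 0.83 ± 0.08, with 27.2% of the 31-base words of Higd1a shared with another gene. Vegfa, the angiogenic factor gene, had 132.5, 138.9 and 183.5 CPM in Vhl cells with AZD8330 and 111.6, 100.1 and 95.36 CPM in Vhl cells with DMSO. It had 5.513, 7.110 and 5.235 CPM in control cells with AZD8330 and 7.616, 7.757 and 5.924 CPM in control cells with DMSO. Only the Vhl groups stood apart by treatment, and the difference of 0.82 ± 0.23 (edgeR's quasi-likelihood test, adjusted p = 0.0373) lost its call in 8 of 20 alternatives, 6 of which each left out 1 library. Those were Vhl DMSO B or C, control AZD8330 A or C, and control DMSO A or B, with values between 0.74 and 0.81. Ddit4, an inhibitor of mTOR signalling, and Bnip3, a mitophagy receptor gene, were negative. Bnip3 rose in both kinds of cell, by log2 0.54 ± 0.04 in Vhl cells and by 0.91 ± 0.06 in control cells. Because its level in DMSO was 649.6 ± 29.9 CPM in Vhl cells and 19.74 ± 1.63 CPM in control cells, the linear difference was positive, 278 ± 25.9 CPM. For Bnip3, 57.0% of the 31-base words are shared with another gene. Hif1a did not pass (−0.14 ± 0.06, edgeR's quasi-likelihood test, adjusted p = 0.149). It did pass with total counts, with DESeq2, at 5 CPM or more and without Vhl AZD8330 A, with values between −0.23 and −0.17. Of the 13 tested HIF pathway components 3 were positive (Egln1, Egln3 and Hif3a, another alpha subunit gene) and Vhl was negative; over the settings 2 or 3 were positive and between 0 and 2 negative.

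Glycolysis had 7 positive and 1 negative difference among 19 tested genes, with a median of log2 0.44. Gpi1, the enzyme that turns glucose 6-phosphate into fructose 6-phosphate, had 1972, 2038 and 1952 CPM in Vhl cells with AZD8330 and 2150, 2179 and 2166 CPM in Vhl cells with DMSO. Among control libraries it had 500.4, 488.7 and 497.8 CPM with AZD8330 and 804.7, 804.9 and 822.4 CPM with DMSO. It fell in both, with log2 −0.12 ± 0.03 in Vhl cells and −0.71 ± 0.03 in control cells (difference 0.59 ± 0.04, edgeR's quasi-likelihood test, adjusted p = 1.45e-06). Gapdh and Pgam1, enzyme genes of the lower pathway, and Slc2a1, the glucose transporter gene, rose in Vhl cells and fell in control cells. Their differences were 0.55 ± 0.04, 0.66 ± 0.04 and 0.32 ± 0.05. In Gapdh and Pgam1, 28.1% and 37.1% of the 31-base words are shared with another gene. The negative member, the hexokinase gene Hk1, ranged from 4.056 to 22.52 CPM among drug-treated control libraries and stayed under 1 CPM in DMSO controls. Its call was lost in limma on log2(CPM + 1) and without control DMSO B, and its sign turned on the linear scale. Listed values need not cover all transcripts of a gene, since the sources used here do not say how transcripts were combined.

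Ribosome biogenesis genes fell less in Vhl cells. Of 21 tested genes, 14 had a positive and none a negative difference, 66.7% against 12.8% of all genes, with a median of log2 0.47. The median drug effect was −0.85 in Vhl cells and −1.39 in control cells, and all 14 had fallen in both. Fbl, the methyltransferase that modifies ribosomal RNA, had 108.1, 113.9 and 103.6 CPM in Vhl cells with AZD8330 and 209.6, 211.7 and 195.0 CPM in Vhl cells with DMSO. The control cells had 88.46, 92.17 and 91.80 CPM with AZD8330 and 262.8, 261.4 and 250 CPM with DMSO. Vhl libraries were above control libraries with the drug and below them without it. The difference was 0.59 ± 0.06 (edgeR's quasi-likelihood test, adjusted p = 8.27e-05). Gnl3, the nucleostemin gene, had 0.69 ± 0.08 and Nolc1, a nucleolar phosphoprotein gene, 0.48 ± 0.05. Between 12 and 14 members were positive in each of the 21 settings.

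Genes of G2 and M phase had negative differences on the log scale. The drug lowered all 21 tested genes of G2 and M phase in both kinds of cell, with a median of −3.58 in Vhl cells and −2.97 in control cells. The difference was negative in 8, against 4.96% of all genes, and positive in none (median log2 −0.49). Mki67, a marker of dividing cells, had 59.65, 51.41 and 57.73 CPM in Vhl cells with AZD8330 and 725.2, 651.4 and 686.2 CPM in Vhl cells with DMSO. Control libraries had 136.8, 131.8 and 116.5 CPM with AZD8330 and 1051, 1062 and 915.9 CPM with DMSO. Vhl cells were lower under both treatments, and the difference was −0.64 ± 0.11 (edgeR's quasi-likelihood test, adjusted p = 0.00203). Ccna2, the cyclin A2 gene, and Cenpf, a kinetochore gene, had −0.60 ± 0.10 and −0.64 ± 0.13. On the linear scale the sign turned for 7 of the 8, with Mki67 at 250 ± 52.0 CPM, where the level in DMSO was higher in control cells. The S phase list stood apart from this: 2 of 26 genes passed (7.69%, below the 12.8% of all genes), Mcm5 and Mcm6 of the replicative helicase, both negative. Its median drug effects were −2.13 in both kinds of cell, and its median difference was −0.016. The count of negative G2 and M members lay between 5 and 13 over the settings. It was 5 without control DMSO B or C and in limma on log2(CPM + 1). It was 13 without Vhl AZD8330 A, with DESeq2 and at 5 CPM or more.

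Most of the genes that passed and that the drug raised in both kinds of cell rose less in Vhl cells, 443 against 64 that rose more. Among all tested genes raised in both, 2103 rose less in Vhl cells and 838 rose more. Of 13 tested Notch genes, 6 had a negative difference, against 4.96% of all genes, and none a positive one. The median was log2 −0.18, and it was −0.31 without Vhl AZD8330 A and −0.27 without control AZD8330 B. The count of negative Notch members was 4 without Vhl AZD8330 B, Vhl DMSO B or C, control AZD8330 A or control DMSO A or B, and 4 with the replicate block. Hes5, a repressor gene switched on by Notch, had 174.8, 166.3 and 173.8 CPM in Vhl cells with AZD8330 and 47.69, 45.92 and 49.87 CPM in Vhl cells with DMSO. Control cells had 142.3, 125.2 and 127.6 CPM with AZD8330 and 14.85, 12.97 and 15.56 CPM with DMSO. Vhl cells were higher under both treatments, so the smaller fold in Vhl cells started at a higher level. The log2 difference was −1.34 ± 0.10 (edgeR's quasi-likelihood test, adjusted p = 3.72e-06), and the linear value was 6.60 ± 6.13 CPM. For Hes5, 25.7% of the 31-base words are shared with another gene. Dll1, a Notch ligand gene, had 187.2 ± 4.16 CPM in Vhl cells and 187.6 ± 7.02 CPM in control cells with the drug, less apart than the libraries of a group. It started at 110.6 ± 6.84 CPM in Vhl cells with DMSO and at 71.25 ± 6.47 CPM in control cells with DMSO, a difference of −0.64 ± 0.09. Jag1, another ligand gene, fell in Vhl cells and rose in control cells (difference −0.52 ± 0.07).

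The 2 largest negative differences under the same rule as Apln were in Draxin and Miat. Draxin encodes a secreted axon guidance protein (chromosome 4, 148098437 to 148130698, minus strand). It had 165.4, 171.3 and 157.2 CPM in Vhl cells with AZD8330 and 33.52, 36.04 and 43.00 CPM in Vhl cells with DMSO. Its control libraries had 274.2, 298.5 and 300.0 CPM with AZD8330 and 22.59, 24.01 and 27.70 CPM with DMSO. Control cells were lower without the drug and higher with it. The difference was −1.42 ± 0.12 (edgeR's quasi-likelihood test, adjusted p = 1.36e-05). Miat, a long noncoding RNA gene, averaged 98.67 ± 19.7 and 30.55 ± 3.49 CPM in Vhl cells with AZD8330 and with DMSO, against 116.2 ± 5.89 and 13.39 ± 0.893 CPM in control cells. Its difference was −1.42 ± 0.19 (edgeR's quasi-likelihood test, adjusted p = 0.000394), and 26.9% of its 31-base words are shared with another gene. Their promoters, both on the minus strand, are shown for that rank (chr4:148130649-148130948 and chr5:112228899-112229198, RefSeq, GRCm38.p6). The capitals in Miat mark a HIF core on the reverse strand, and Draxin held no motif searched.
Draxin: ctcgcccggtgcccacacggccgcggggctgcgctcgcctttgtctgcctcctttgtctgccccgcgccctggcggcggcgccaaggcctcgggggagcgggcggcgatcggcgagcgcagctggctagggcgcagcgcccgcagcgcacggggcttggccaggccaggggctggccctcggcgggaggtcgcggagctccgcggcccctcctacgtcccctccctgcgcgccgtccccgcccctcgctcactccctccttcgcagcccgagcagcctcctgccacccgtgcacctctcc
Miat: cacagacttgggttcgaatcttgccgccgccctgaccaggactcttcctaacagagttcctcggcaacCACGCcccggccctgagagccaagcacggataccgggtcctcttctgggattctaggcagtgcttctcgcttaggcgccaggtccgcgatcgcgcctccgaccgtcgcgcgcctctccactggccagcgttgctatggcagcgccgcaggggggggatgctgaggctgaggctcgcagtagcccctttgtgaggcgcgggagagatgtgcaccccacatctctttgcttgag

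Gadd45g, a stress-induced gene that slows the cell cycle, and Lingo1, an inhibitor of myelination, also rose less in Vhl cells, with differences of −1.28 ± 0.09 and −1.15 ± 0.09. Mean Gadd45g was higher in Vhl than in control cells with AZD8330 (104.8 against 81.76 CPM) and with DMSO (43.52 against 13.95 CPM). Its linear value was −6.53 ± 3.88 CPM. Mean Lingo1 was lower in Vhl cells with AZD8330 (155.1 against 247.8 CPM) and higher with DMSO (54.17 against 38.99 CPM). Of 20 tested genes of oligodendrocyte maturation, 5 had a negative difference and 1, the connexin gene Gjc3, a positive one (median log2 −0.30). The median drug effect was 0.76 in Vhl cells and 1.05 in control cells. Cnp, a myelin enzyme gene, had 373.4, 369.7 and 343.7 CPM in Vhl cells with AZD8330 and 154.8, 165.5 and 164.8 CPM in Vhl cells with DMSO. Among control libraries it had 379.7, 409.4 and 394.8 CPM with AZD8330 and 131.5, 131.2 and 127.3 CPM with DMSO. It rose in both, and the difference was −0.44 ± 0.06 (edgeR's quasi-likelihood test, adjusted p = 0.00051). Bcas1, a gene of early myelinating cells, had −0.59 ± 0.08. Mbp, the myelin basic protein gene, and Myrf, the factor that starts the myelin program, were low in all groups and did not pass (−0.48 ± 0.54 and −1.04 ± 0.82).

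Lineage genes were divided: Sox10, Pdgfra and Olig2 did not pass the test of the difference, while some other transcription factor genes did. Sox10, which oligodendrocyte differentiation needs, had 30.96, 34.73 and 27.23 CPM in Vhl cells with AZD8330 and 20.22, 17.37 and 15.47 CPM in Vhl cells with DMSO. The control cells had 99.93, 96.93 and 95.03 CPM with AZD8330 and 47.79, 55.30 and 50.46 CPM with DMSO. The drug raised it in both, by log2 0.81 ± 0.11 in Vhl cells and by 0.93 ± 0.09 in control cells, while every Vhl library stayed below every control library. The difference of −0.12 ± 0.14 did not pass (edgeR's quasi-likelihood test, adjusted p = 0.669). Pdgfra, the OPC growth factor receptor gene, had −0.13 ± 0.17 (edgeR's quasi-likelihood test, adjusted p = 0.705). The lineage factor gene Olig2 had 0.03 ± 0.04 (edgeR's quasi-likelihood test, adjusted p = 0.666), a sign that total counts and 3 other settings turned. Sox5 and Sox6, SOX factor genes of OPCs, had −0.83 ± 0.16 and −0.25 ± 0.06, and Zfp488, a factor gene of oligodendrocyte maturation, −1.2 ± 0.25. These 3 were named after their values were seen, and passed edgeR's quasi-likelihood test with adjusted p of 0.00403, 0.0176 and 0.00747. The drug lowered Sox5 in Vhl cells alone, whereas Sox6 rose in both kinds of cell and less in Vhl cells. Sox9, on the astrocyte list, had −0.16 ± 0.04, a call lost in 8 alternatives, 7 of which each left out 1 library. On the OPC identity list 1 of 22 genes was positive and 5 negative, with a median of −0.02. Cacng4, the gene of an auxiliary subunit of AMPA receptors, was positive (0.60 ± 0.05). The matrix protein gene Tnr was negative (−0.83 ± 0.11), and its sign turned on the linear scale.

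Markers of other cell types moved with the drug, and their part in these differences was not tested. The 14 astrocyte markers summed to 3927 to 4016 CPM in Vhl cells with AZD8330 and 2457 to 2503 CPM in Vhl cells with DMSO, and to 4024 to 4156 and 2042 to 2085 CPM in control cells. Of them 3 were negative and none positive, among them the water channel gene Aqp4 (−1.01 ± 0.20) and the connexin gene Gja1 (−0.33 ± 0.07). Gfap, the defining astrocyte filament gene, rose by log2 5.05 ± 0.13 in Vhl cells and by 4.99 ± 0.12 in control cells. Its difference of 0.06 ± 0.20 did not pass (edgeR's quasi-likelihood test, adjusted p = 0.889), and its sign turned in 6 settings. The neuron markers summed to 2627 to 2649 CPM in Vhl cells with AZD8330 and 1639 to 1768 CPM in Vhl cells with DMSO, and to 2212 to 2223 and 1171 to 1233 CPM in control cells. Of 10 tested, 3 were negative and 1 positive. Dcx, a gene of migrating young neurons that OPCs also express, had −0.63 ± 0.05. The positive one was Gap43 (0.39 ± 0.06), which fell in both kinds of cell and less in Vhl cells. Of the progenitor markers 1 of 7 was positive, Vim (14.3% against 12.8% of all genes called). None was positive with total counts, at 5 CPM or more, without Vhl AZD8330 A or without control AZD8330 B, where 1 or 2 were negative. Of the Schwann and endothelial lists Pmp22 passed with a positive and Kdr with a negative difference, and the call for Kdr was lost without Vhl DMSO C (−0.94). None of 3 pluripotency and none of 3 mesenchymal markers tested passed; their sums stayed under 24 CPM.

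Mitochondrially encoded genes had 6 negative and no positive differences among 13 (median log2 −0.24), led by mt-Co3, a cytochrome oxidase subunit gene, at −0.63 ± 0.15. The list had 2 calls without Vhl DMSO B and 3 without Vhl DMSO C or control AZD8330 C. For mt-Co3, 99.9% of the 31-base words are shared with another gene. Only 2 of 26 nuclear oxidative phosphorylation genes passed, Cyc1 (positive) and Ndufa4 (negative). Cyc1 lost its call without control AZD8330 B, and Ndufa4 lost it in 8 of the 12 settings that left out 1 library. The ATF4 program of amino acid stress had 5 positive and 1 negative among 18. The negative gene was the cystine transporter Slc7a11, with 53.98 ± 1.89 and 52.27 ± 0.847 CPM in Vhl cells with AZD8330 and with DMSO, against 89.62 ± 2.49 and 46.41 ± 2.12 CPM in control cells (SD, n = 3). It rose in control cells alone, and its difference was −0.90 ± 0.07 (edgeR's quasi-likelihood test, adjusted p = 6.34e-06). The 5 small positive ones were not stable as a group, since between 0 and 5 passed over the settings, with 0 without Vhl AZD8330 A and without control AZD8330 B.

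The p53 list had 2 positive and 4 negative among 16. Trp53 itself had 69.10, 60.04 and 64.28 CPM in Vhl cells with AZD8330 and 93.63, 109.5 and 92.34 CPM in Vhl cells with DMSO. Control libraries had 10.46, 5.805 and 11.19 CPM with AZD8330 and 67.53, 121.4 and 81.80 CPM with DMSO. Drug-treated control cells were far below the other groups, and the difference was 2.69 ± 0.31 (edgeR's quasi-likelihood test, adjusted p = 0.000136). Cdkn1a, the cell cycle inhibitor gene that p53 induces, fell in both, with log2 −0.42 ± 0.05 in Vhl cells and −0.84 ± 0.05 in control cells. Its difference was 0.41 ± 0.07, and its linear value was −3.17 ± 7.06 CPM. Wnt targets had 2 positive and 1 negative among 9, with no positive one without Vhl AZD8330 A or C, control AZD8330 B or control DMSO C. The interferon list had 1 of 10 genes pass and the unfolded protein response 1 of 17, both below the 12.8% of all genes.

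**Figure D4:**
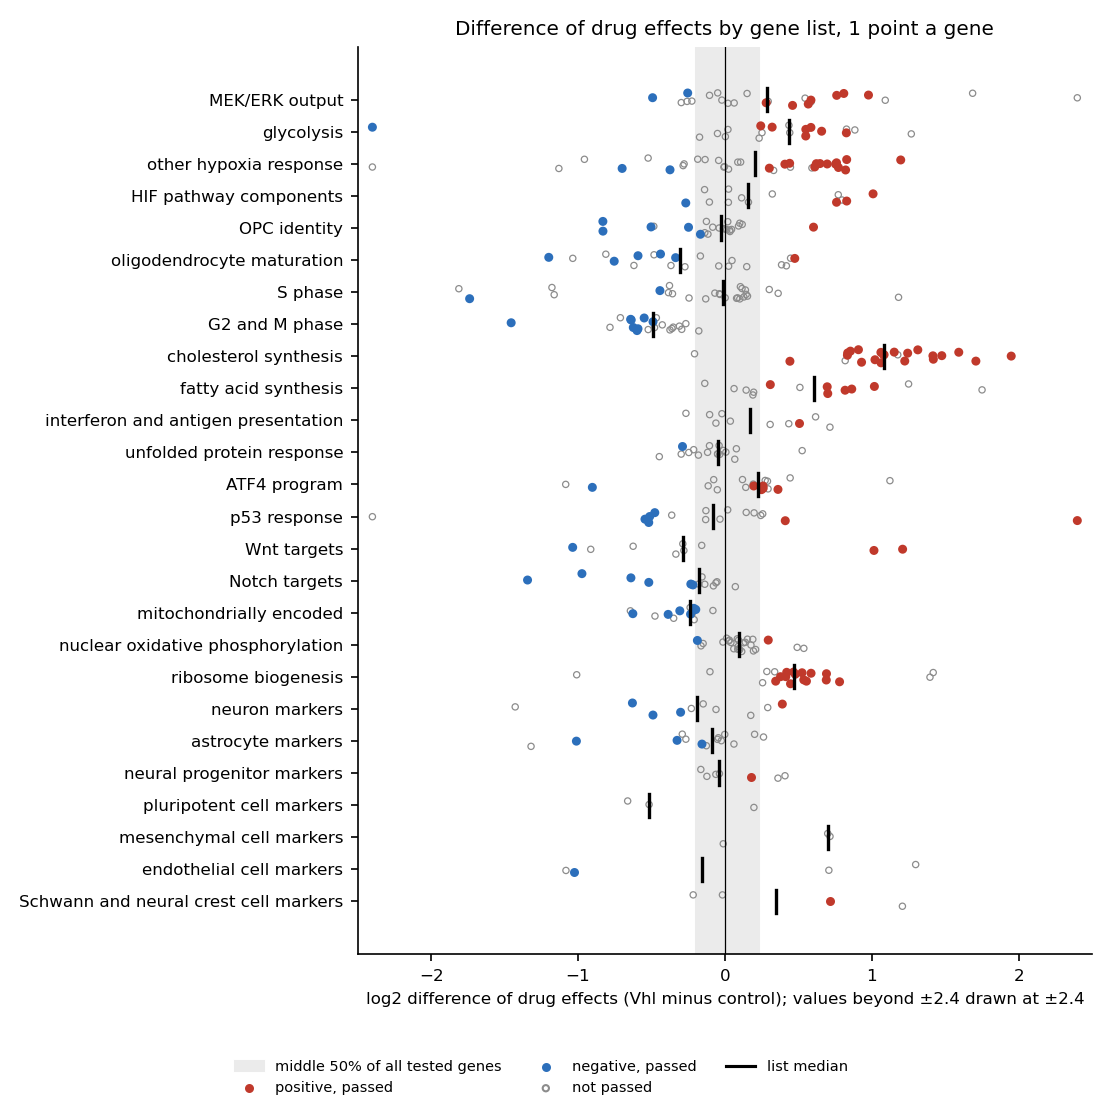
The horizontal axis gives the log2 difference of drug effects (Vhl minus control) of each tested gene by list, with red and blue points for positive and negative differences that passed, open points for the rest and a black bar at the list median. The grey band holds the middle 50% of all tested genes, and 5 points beyond 2.4 in size are drawn at that limit. The medians of cholesterol synthesis, fatty acid synthesis and ribosome biogenesis lie to the right of the band, and that of G2 and M phase to its left. They are not the only ones: among others, the mesenchymal median (3 genes) lies to the right and the pluripotency median (3 genes) to the left.

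Among genes chosen by size alone, several were nearly silent in 1 group. Cyp3a13, a cytochrome P450 gene, had 411 counts in the 3 Vhl libraries with AZD8330 and 2 in those with DMSO, against 286 counts in control cells with AZD8330 and 20 in control cells with DMSO. It passed (edgeR's quasi-likelihood test, adjusted p = 0.00587), but its fitted fold rests on those 2 counts and is not given. Npas1, a neuronal transcription factor gene, had 8.275, 5.821 and 6.697 CPM in Vhl cells with AZD8330 and 1.194, 1.363 and 1.509 CPM in Vhl cells with DMSO, and under 0.5 CPM in every control library. It rose in Vhl cells alone (difference 2.56 ± 0.52). Slc1a5, the glutamine transporter gene, had 19.24, 17.53 and 13.76 CPM in Vhl cells with AZD8330 and 9.395, 7.699 and 7.997 CPM in Vhl cells with DMSO. Control cells had 5.830, 6.458 and 7.315 CPM with AZD8330 and 14.72, 12.70 and 12.42 CPM with DMSO. It rose in Vhl cells and fell in control cells, a difference of 2.04 ± 0.22 (edgeR's quasi-likelihood test, adjusted p = 8.65e-05).

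Fbxo32, the ubiquitin ligase gene known as atrogin-1 in muscle, rose less in Vhl cells, with 32.57 ± 2.96 and 10.16 ± 2.33 CPM in Vhl cells with AZD8330 and with DMSO, against 71.08 ± 0.980 and 6.20 ± 0.162 CPM in control cells (SD, n = 3). Its difference was −1.84 ± 0.19. The largest negative value, for Wdr41, rested on 1 library in each of 2 groups, 40.21 CPM in Vhl DMSO C and 39.35 CPM in control AZD8330 A, with all others under 1 CPM. That call was lost in 11 alternatives, among them without either of those libraries. Ascl2 and Dlx3, transcription factor genes, were under 1 CPM in every control library and did not pass the test of the difference (edgeR's quasi-likelihood test, adjusted p = 0.875 and 0.782). Dlx3 had 17.03, 19.75 and 18.42 CPM in Vhl cells with AZD8330 and 17.91, 16.56 and 16.07 CPM in Vhl cells with DMSO.

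The promoter windows of genes with positive and negative differences differed in motif content as a description, with no test. The windows covered 9842 of the 13460 tested genes with 12634 promoters. The HIF core (ACGTG or GCGTG, either strand) was in 71.2% of 1022 promoters of positive genes, in 57.7% of 631 promoters of negative genes and in 62.0% of all. The ETS core CCGGAAG was in 19.1%, 7.77% and 17.1% in the same order. The AP-1 letters TGANTCA were in 4.40%, 5.07% and 4.77%. The sterol regulatory element TCACNCCAC, added after seeing the data, was in 0.391%, 1.43% and 1.12%, and in 1 of 20 promoters of the sterol list. The E-box CACGTG, also added and containing the HIF core, was in 13.1%, 7.92% and 9.67%. The base composition of the windows was not compared.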

How the data were processed

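RNA from 12 libraries of cultured mouse OPCs was analysed. The authors deposited 1 table for them, with 54279 rows. Per the submitters' processing notes, Salmon 0.14.1 and the build mm10 were used; the step from transcripts to genes, the kit and its strandedness are not given. The table is named as TPM, but the values the authors deposited are estimated counts: column totals differ between libraries, and 58.8% of the values above 0 are whole within 0.001. In 26 rows a date stands in place of a symbol; they were kept in the fit and are not named.

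Estimated counts were rounded to whole numbers. Genes averaging at least 1 CPM were fitted together in 4 groups with the quasi-likelihood test of edgeR 4.0.16 (R 4.3.3), with TMM scaling and no covariate. The contrast was (Vhl AZD8330 minus Vhl DMSO) minus (control AZD8330 minus control DMSO), with p-values adjusted by Benjamini-Hochberg over all 13460 genes and a threshold of 0.05. Values are CPM by library or mean ± SD (n = 3), and log2 values carry their SE. The common dispersion was 0.0161. The fit was tested on data simulated from its own model, which cannot show whether that model holds for these libraries.

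Same-lettered libraries did not deviate together, and no 2 libraries were identical. Alternatives were other scalings, DESeq2 1.42.0, limma 3.58.1 on log2(CPM + 1) or log2(CPM + 0.1), other filters, a replicate block, leaving out each library, and the linear scale. Named genes are, without unnamed gene models, the 8 largest differences in each direction with a group at 5 CPM, the 6 largest with all groups at 10 CPM, 3 genes of each list with the smallest p, the 8 with opposite drug effects and the smallest p, and 22 fixed genes; Il17rd, Dusp7, Ddit4, Hif3a, Gjc3 and others said to be were named after their values were seen. The gene lists, from textbook knowledge, and these rules were chosen with earlier results of these data known. Positions are 1-based (GENCODE M21, GRCm38); shared sequence was counted in 31-base words of GENCODE transcripts. Figures were drawn with matplotlib 3.10.9. Some single-gene results of the cholesterol list are not reported here; its counts cover all its tested genes.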

Additional observations from a re-analysis of the deposited data

Results flagged for a closer look

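The drug effect differed between Vhl and control cells in 1718 genes by the test of the difference itself, and every named difference that passed in the report is of this kind. Those in which both drug effects passed with opposite signs are set apart here, and 7 of the 8 with the smallest p are given. Each of the 7 rose with AZD8330 in Vhl cells and fell with it in control cells, with no overlap between the libraries of the 2 treatments in either kind of cell. The log2 differences were 1.59 for Idi1, 1.48 for Lss, 1.42 for Mvd, 1.08 for Hmgcs1, 1.03 for Aacs, 0.93 for Fdft1 and 0.66 for Pgam1. Of these, 5 are on the cholesterol list. Groups of 3 libraries are too small to flag a single library.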

How the results depend on the processing

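The number of calls was 1718 and lay between 1553 and 1813 over the other scalings, tests and filters, and between 1246 and 1584 when 1 library was left out. Positive calls, 1051 in the report, were 683 with total counts and 654 at 5 CPM or more, where negative calls were 1087. With 1 library left out, positive calls lay between 465 and 977 and negative calls between 518 and 920; the low ones, 484 and 465, were without Vhl AZD8330 A and without control AZD8330 B. The median difference over all tested genes, 0.0344 in the report, turned negative in the same fits. It was −0.0506 without Vhl AZD8330 A, −0.041 without control AZD8330 B, −0.0358 at 5 CPM or more and −0.0266 with total counts. With any other library left out it lay between 0.027 and 0.0385. Counts by direction thus moved together with the middle of all genes. The cause was not tested. Same-lettered libraries showed no shared deviation from their group means: none of 18 same-lettered pairs correlated above 0.1 (−0.04 to 0.05). This cannot tell whether the letters mark matched cultures or batches, which the labels do not state. With the letter as a replicate block, 1552 genes passed (958 positive, 594 negative), 1483 of them shared with the 1718.

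Of 91 named genes that passed, 68 kept call and direction in each log-scale setting that fitted them, 23 lost the call in at least 1, and none reversed. On the linear CPM scale 13 turned sign: Hk1 (8.84), Vwa5b1 (3.03), Hes5 (6.60), Tnr (19.7), Mcm5 (59.3), Mki67 (250), Ccna2 (48.2), Cenpf (43.8), Cdkn1a (−3.17), Ndufa4 (4.85), Sox9 (69.8), Bnip3 (278) and Ccnd1 (−108). Among genes that did not pass, Olig2 turned with total counts (−0.0268) and at 5 CPM (−0.0491), and Gfap in limma with 1 added (−0.0548) and at 5 CPM (−0.0207). With 1 library left out, Olig2 lay between −0.0643 and 0.0520, Gfap between −0.131 and 0.198, Ascl2 between −0.985 and 1.2, Dlx3 between −0.196 and 3.25 and Mbp between −0.796 and 0.133.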
